A study of Homo sapiens with 6 samples.

Results

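The genes described here are ATF4, the main transcription factor of the integrated stress response, and genes it is known to control. They also include 19 genes for cytosolic aminoacyl-tRNA synthetases, many of which are ATF4 targets too. All were listed by symbol, and rows of the count table were found by Ensembl gene ID with the version removed. Of 37 listed genes, 36 had a row, out of 34371 rows in all, and each of these 36 passed the filter on low counts. SESN2 was not analysed here. The members comprised 18 regulators and targets and 19 synthetases.

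The cells were ME-1, a human acute myeloid leukaemia line that carries an inversion joining CBFB to MYH11. Cells of all 6 libraries had been transduced and selected, 3 with an empty vector and 3 with a vector for overexpression of SPNS2, a transporter that carries sphingosine-1-phosphate out of cells. The promoter of the vector, the selection agent, the time after transduction and whether selected cells were pooled or cloned are not given in the labels used here. Polyadenylated RNA was sequenced, and the comparison asks how the transcriptome differed when SPNS2 was added.

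In the integrated stress response, kinases that sense amino acid shortage, unfolded protein, haem shortage or double-stranded RNA phosphorylate the translation factor eIF2. General translation then falls while the ATF4 and ATF5 mRNAs are translated more, because of short reading frames ahead of their coding sequence. ATF4 pairs with C/EBP proteins and binds composite sites in genes for amino acid uptake, amino acid synthesis and tRNA charging. Myeloid leukaemia cells are known to use this pathway to keep up amino acid supply.

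The composite site that ATF4 and C/EBP proteins bind has the core TGATGNAA, where N is any base. This core was searched on both strands (as TGATGNAA and TTNCATCA) in RefSeq promoter windows of GRCh38.p14, from 250 bases before to 50 bases after each annotated start. Of 37 listed genes, 32 had at least 1 window, and 12 of these held the core, against 4.46% of all 27305 genes with a window. Since many members were listed as known ATF4 targets, this contrast describes the list and is not a test. NUPR1, GPT2, LARS1, YARS1 and VARS1 had no window. Only the matches of the 8 members that were lower with SPNS2 are shown, so their pairing with a lower transcript comes from this choice. ATF3, CEBPG, PPP1R15B and CARS1, which were not called, also held a match. Each match shown is read in the direction of the core, with the core in capitals and 10 bases on each side.
ASNS, chr7:97872459-97872486, minus strand: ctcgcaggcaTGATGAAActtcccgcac
CHAC1, chr15:40953252-40953279, minus strand: ctggcaggagTGATGCAAcggcagggga
AARS1, chr16:70289676-70289703, plus strand: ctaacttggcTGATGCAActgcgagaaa
GARS1, chr7:30594835-30594862, minus strand: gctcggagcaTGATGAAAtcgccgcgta
IARS1, chr9:92293693-92293720, plus strand: cgcacggaggTGATGCAAcgcgctgaaa
MARS1, chr12:57488054-57488081, minus strand: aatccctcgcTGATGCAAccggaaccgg
NARS1, chr18:57621805-57621832, minus strand: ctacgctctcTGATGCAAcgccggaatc
TARS1, chr5:33440957-33440984, minus strand: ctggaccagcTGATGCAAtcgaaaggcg
The core read TGATGCAA in 6 of these 8 and TGATGAAA in ASNS and GARS1. Counted along the gene, the first base of the core lay 68 bases before the annotated start in ASNS, 209 in CHAC1, 187 in AARS1, 33 in GARS1, 13 in IARS1 and 4 in MARS1. In TARS1 and NARS1 it lay at bases 3 and 15 after the start. A match shows only that these letters are present in the window, not that a factor binds there.

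The libraries held 28605187 to 38489992 counts. The row of the vector SPNS2 sequence held 24792 to 25752 counts in the SPNS2 libraries and 0 to 9 in the empty vector libraries, so each library matched its label. Levels are given as CPM, the counts per 1e6 counts of the TMM-scaled library, and the groups separated along the first principal component of log2 CPM (36.6% of the variance). The labels name no separate cultures for libraries of a group, so p-values measure the spread among these libraries, which may be technical. The line's progenitor and myeloid markers summed to 27966 to 28424 CPM in empty vector libraries and 27843 to 29316 CPM with SPNS2, mostly from MPO. CBFB had means of 52.1 and 54.6 CPM, but MYH11 held only 2 to 14 counts per library (means of 0.180 and 0.224 CPM). The MYH11 row thus does not show the joining of CBFB to MYH11 named above. Whether that row misses reads through the authors' annotation or counting was not tested. Within that list KIT (0.55) and PTPRC (0.26) were higher and CD34 (-0.25) and CD33 (-0.71 on the log2 scale) lower with SPNS2 by edgeR, and their part in the results below was not tested. Markers of fibroblasts and erythroid cells summed to under 1 CPM in each library, T cell markers to 2.96 to 4.74 CPM and B cell markers to 7.48 to 9.99 CPM. Of 5 epithelial markers, KRT18 and KRT19 were at 0 counts and EPCAM gave nearly all of the sum, 119 to 128 CPM in empty vector libraries and 141 to 144 CPM in SPNS2 libraries.

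Most of these genes were slightly lower in cells with added SPNS2. Of the 36 members tested, 23 were lower and 0 higher at an adjusted p under 0.05 by edgeR's quasi-likelihood test, and 13 did not pass. Over all 13308 features tested, 24.5% were called, 12.6% lower and 11.9% higher. The median log2 fold change of the members was -0.13, beside 0.0026 over all features. At an unadjusted p under 0.05 by edgeR, 26 members were lower and 1 higher, against 18.2% and 18% of features. DESeq2 and limma voom each called 23 lower and 0 higher, against 10.2% and 12.4% of features lower. All 3 SPNS2 libraries lay below all 3 empty vector libraries for 24 members, against 20.3% of features, and above them for 2, against 19.8%. The changes were small: among the 23 lower members the log2 fold changes ran from -0.08 in LARS1 to -0.49 in DDIT4. In bulk RNA, less transcript in every cell and fewer cells that carry the transcript cannot be told apart.

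**Figure D1:**
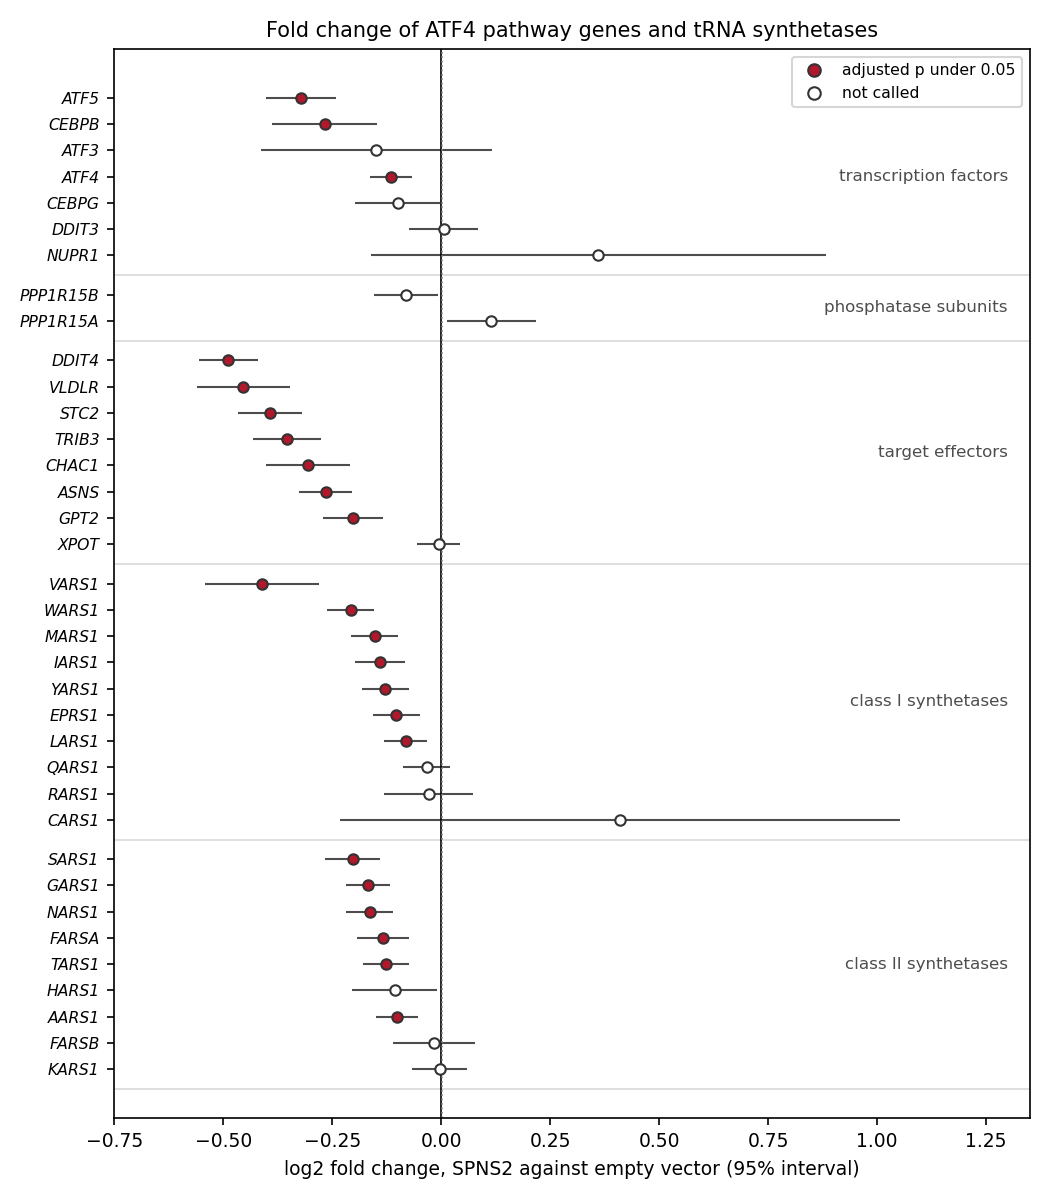
Log2 fold change of each measured member, SPNS2 against empty vector (x axis), with its 95% interval, grouped by role; filled points passed an adjusted p under 0.05 by edgeR and the dotted line is the median of all features. The 23 called members all lie left of 0, target effectors reach -0.49, and the wide intervals belong to NUPR1 and CARS1, which had few counts.

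Among the transcription factors, 3 of 7 were lower (42.9%, against 12.6% of all features). ATF4 (ENSG00000128272.17), which drives the programme, was at 767, 775 and 789 CPM in the empty vector libraries and 719, 707 and 725 CPM in the SPNS2 libraries. Each SPNS2 library was below each empty vector library, although the groups were only 7.72% apart (edgeR log2 fold change -0.12 with SE 0.0221 and adjusted p = 0.00321). Since ATF4 is known to be controlled largely at translation, its mRNA level is not a measure of its protein.

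ATF5, a related factor that is also translated under stress, was at 125, 127 and 136 CPM in the empty vector libraries and 104, 104 and 101 CPM in the SPNS2 libraries. The groups did not overlap, and ATF5 fell (edgeR log2 fold change -0.32 with SE 0.0365 and adjusted p = 0.000129). CEBPB, a C/EBP factor of myeloid cells, went from 33.2 ± 2.55 to 27.6 ± 0.0747 CPM (SD, n = 3 each) and fell as well (edgeR log2 fold change -0.27 with SE 0.0546 and adjusted p = 0.00476). Its SPNS2 libraries were nearly identical, at 27.5, 27.7 and 27.6 CPM.

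The other transcription factors did not pass. DDIT3 (CHOP), a C/EBP factor linked to cell death under prolonged stress, was at 41.9, 42.3 and 44.3 CPM in the empty vector libraries and 42.7, 42.3 and 44.1 CPM in the SPNS2 libraries. These values overlapped fully, and the 95% interval of the log2 fold change, -0.07 to 0.08, excludes a fall as large as that of ATF5. CEBPG, the usual C/EBP partner of ATF4, was at 80.2 ± 4.87 CPM in empty vector cells and 74.7 ± 2.57 CPM in SPNS2 cells (SD, n = 3 each; edgeR log2 fold change -0.10 with SE 0.0447 and adjusted p = 0.131). With empty vector library 1 left out, CEBPG passed at -0.14 (adjusted p = 0.0292). ATF3, an early stress factor, was at 7.66 ± 0.509 CPM in empty vector cells and 6.89 ± 1.21 CPM in SPNS2 cells (SD, n = 3 each), with an interval of -0.41 to 0.12. NUPR1, a small stress-induced nuclear protein, held only 29 to 51 counts per library, and its interval of -0.16 to 0.88 resolves little.

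PPP1R15A (GADD34) and PPP1R15B (CReP) steer the phosphatase that removes phosphate from eIF2, the first induced by stress and the second made constantly. Neither passed, and their estimates had opposite signs. PPP1R15A was at 29.9, 29.4 and 29.3 CPM in the empty vector libraries and 33.5, 32.3 and 30.2 CPM in the SPNS2 libraries. Its SPNS2 libraries were all above the empty vector libraries, and it was the member with an unadjusted p under 0.05 on the higher side (edgeR log2 fold change 0.11 with SE 0.0465 and adjusted p = 0.0989). Without SPNS2 library 3 it passed, at 0.15 (adjusted p = 0.0435). PPP1R15B was at 103 ± 0.347 CPM in empty vector cells and 97.2 ± 3.91 CPM in SPNS2 cells (SD, n = 3 each; edgeR log2 fold change -0.08 with SE 0.0334 and adjusted p = 0.1), with its SPNS2 libraries all below the others.

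The effectors downstream of ATF4 included the largest falls among the members, those of DDIT4 and VLDLR. Of 8 measured, 7 were lower (87.5%, against 12.6% of all features) and XPOT was not called. The median log2 fold change was -0.33. DDIT4 (REDD1), which restrains the growth kinase mTORC1, was at 67.9, 68.5 and 69.1 CPM in the empty vector libraries and 49.4, 47.8 and 49.2 CPM in the SPNS2 libraries. All SPNS2 libraries were low, and DDIT4 fell by 28.7% (edgeR log2 fold change -0.49 with SE 0.0307 and adjusted p = 2.29e-06).

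VLDLR, a lipoprotein receptor induced by ATF4 under stress, was at 26.2, 27.6 and 27.1 CPM in the empty vector libraries and 20.3, 19.9 and 18.8 CPM in the SPNS2 libraries. The groups were well apart, with a fall of 27.0% (edgeR log2 fold change -0.45 with SE 0.0487 and adjusted p = 9.04e-05). STC2, a secreted glycoprotein, was at 90.7, 87.5 and 88.3 CPM in the empty vector libraries and 69.7, 68.0 and 65.3 CPM in the SPNS2 libraries. It fell by 23.9% with no overlap between groups (edgeR log2 fold change -0.39 with SE 0.0333 and adjusted p = 1.83e-05).

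TRIB3, a pseudokinase that feeds back on ATF4 signalling, was at 89.0, 86.6 and 85.0 CPM in the empty vector libraries and 65.1, 69.6 and 69.4 CPM in the SPNS2 libraries. All SPNS2 libraries were low, and TRIB3 fell by 21.7% (edgeR log2 fold change -0.35 with SE 0.0354 and adjusted p = 5.69e-05). CHAC1, which breaks down glutathione, fell by 19.1% (edgeR log2 fold change -0.31 with SE 0.0441 and adjusted p = 0.000582). ASNS, the enzyme that makes asparagine, was at 184, 189.8 and 188 CPM in the empty vector libraries and 153, 159 and 155 CPM in the SPNS2 libraries. The empty vector libraries were all higher, and ASNS fell by 16.8% (edgeR log2 fold change -0.27 with SE 0.0276 and adjusted p = 7.17e-05). GPT2, a mitochondrial transaminase that makes alanine, had the smallest fall of the 7, from 66.7 ± 1.02 to 58.0 ± 1.17 CPM (SD, n = 3 each; edgeR log2 fold change -0.20 with SE 0.0313 and adjusted p = 0.000908).

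XPOT, the exportin that carries tRNA out of the nucleus, was at 331, 336 and 334 CPM in the empty vector libraries and 330.3, 332 and 334 CPM in the SPNS2 libraries. The groups overlapped, and the 95% interval of its log2 fold change ran from -0.06 to 0.04, which excludes a fall as large as that of any of the 7 effectors called.

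**Figure D2:**
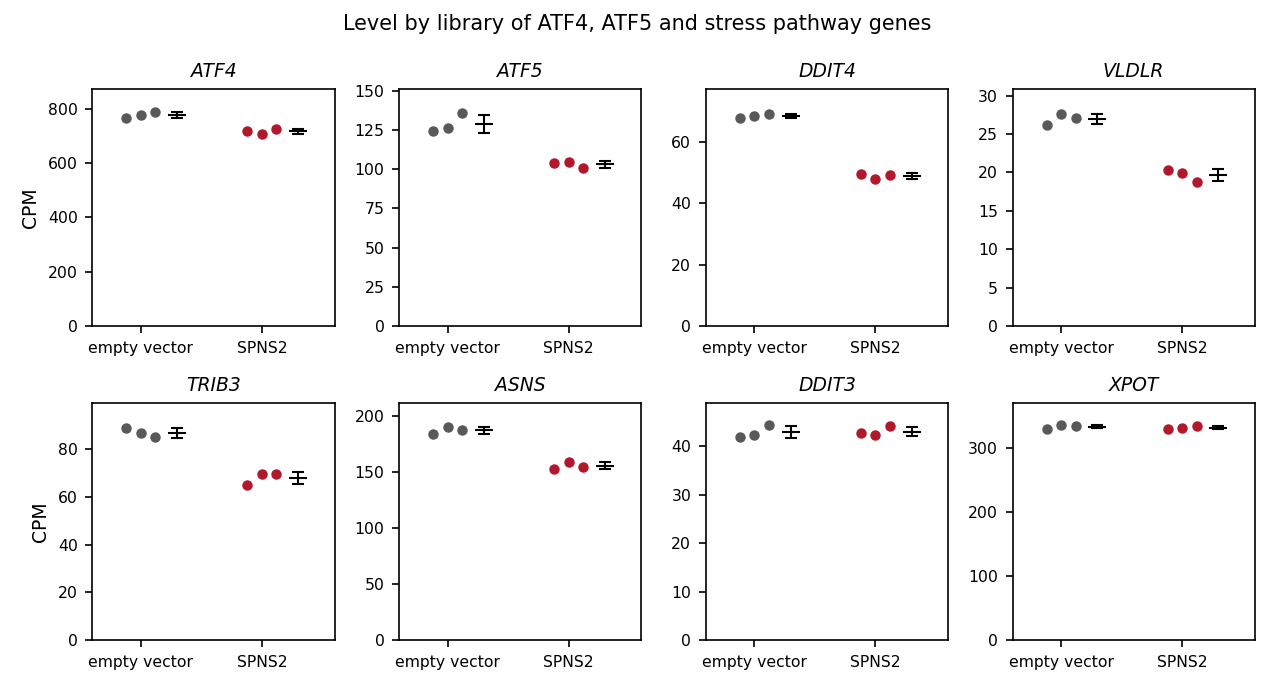
CPM (y axis, from 0) in each empty vector (grey) and SPNS2 (red) library for 8 regulators and targets; bars are mean ± SD of 3 libraries. DDIT4, VLDLR, TRIB3, ASNS and ATF5 separate clearly, ATF4 by 7.72%, and DDIT3 and XPOT overlap.

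Aminoacyl-tRNA synthetases attach each amino acid to its tRNA. Of the 19 cytosolic synthetase genes among the members, 13 were lower with SPNS2 and 6 were not called. That is 68.4% lower, against 12.6% of all features. The median log2 fold change of the 19 genes was -0.13. The libraries with the empty vector summed to 4752, 4705 and 4713 CPM over the 19 genes and those with SPNS2 to 4319, 4349 and 4325 CPM. Each SPNS2 library was below each empty vector library, and the summed level was 8.31% lower. This sum is given as a description, without a test.

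Synthetases fall into structural classes with unrelated catalytic folds. Lower members were found in both: 7 of 10 in class I (70%) and 6 of 9 in class II (66.7%), against 12.6% of all features. Medians were -0.12 and -0.13 on the log2 scale. EPRS1 was counted in class I only, by its glutamate part, so its proline part is not in the class II count. Within class I, VARS1, for valine, had the largest change, at 85.9, 74.7 and 88.5 CPM in the empty vector libraries and 64.5, 64.5 and 58.6 CPM in the SPNS2 libraries. The SPNS2 libraries were all lower, but the empty vector libraries were uneven, with library 2 nearest to SPNS2 (edgeR log2 fold change -0.41 with SE 0.0595 and adjusted p = 0.000589). Leaving out each library in turn gave values from -0.48 to -0.37, and VARS1 passed in all 6 of these fits.

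WARS1, for tryptophan, also known as an interferon-induced gene, was at 322, 320.3 and 320.4 CPM in the empty vector libraries and 284, 275 and 273 CPM in the SPNS2 libraries. The groups were far apart relative to their spread, with a fall of 13.4% (edgeR log2 fold change -0.21 with SE 0.0248 and adjusted p = 0.000183). The next class I members were MARS1 for methionine (-0.15), IARS1 for isoleucine (-0.14) and YARS1 for tyrosine (-0.13 on the log2 scale), with adjusted p-values of 0.0012, 0.00294 and 0.0032 by edgeR. EPRS1, a fused enzyme for glutamate and proline, changed by -0.10 and LARS1, for leucine, by -0.08 on the log2 scale. Both calls depended on which library was left out. EPRS1 was not called without SPNS2 library 1 (adjusted p = 0.0528), and LARS1 lost its call in 4 of the fits that left out a library: empty vector 2 (0.0557), empty vector 3 (0.0528), SPNS2 1 (0.0847) and SPNS2 2 (0.0601).

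In class II, SARS1, for serine, was at 129, 125 and 127 CPM in the empty vector libraries and 109, 112 and 109.5 CPM in the SPNS2 libraries. Its groups did not overlap (edgeR log2 fold change -0.20 with SE 0.0285 and adjusted p = 0.00049). GARS1, for glycine, was at 431, 441 and 436 CPM in the empty vector libraries and 385, 391 and 388 CPM in the SPNS2 libraries. It fell by 11.0%, again with no overlap (edgeR log2 fold change -0.17 with SE 0.0226 and adjusted p = 0.000376). NARS1, for asparagine, went from 242 ± 0.620 to 216 ± 2.92 CPM (SD, n = 3 each; edgeR log2 fold change -0.16 with SE 0.0242 and adjusted p = 0.000681). FARSA, a subunit of the phenylalanine enzyme, changed by -0.13, TARS1 for threonine by -0.13 and AARS1 for alanine by -0.10 on the log2 scale, with adjusted p-values of 0.00471, 0.00286 and 0.00658 by edgeR.

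The 6 synthetases that did not pass differed in how closely they were measured. KARS1, for lysine, was at 186, 195 and 194 CPM in the empty vector libraries and 188, 191 and 195 CPM in the SPNS2 libraries. The groups overlapped, and the interval of the log2 fold change was -0.07 to 0.06. QARS1, for glutamine, was at 413, 399 and 402 CPM in the empty vector libraries and 392, 403 and 392 CPM in the SPNS2 libraries. Its interval, -0.09 to 0.02, excludes a fall as large as those of 12 of the 13 called synthetases, LARS1 being the exception. That interval overlaps those of some called synthetases, such as AARS1 (-0.15 to -0.05), and not those of others, such as WARS1 (-0.26 to -0.15). Differences between QARS1 and the called synthetases were not tested.

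RARS1 for arginine, FARSB for phenylalanine and HARS1 for histidine had fewer counts and wider intervals of -0.13 to 0.07, -0.11 to 0.08 and -0.20 to -0.01. For each of these genes a fall of 0.10 on the log2 scale lies within the interval. HARS1 passed without SPNS2 library 2 (log2 fold change -0.15, adjusted p = 0.0473). CARS1, for cysteine, held 12 to 23 counts per library, or 0.422 ± 0.0187 CPM in empty vector cells and 0.562 ± 0.111 CPM in SPNS2 cells (SD, n = 3 each). Its SPNS2 libraries were all above the others, but the interval was -0.23 to 1.05, and no direction was detectable at these counts. The other 18 synthetases held at least 1124 counts in each library, and whether the authors' annotation or counting left reads of CARS1 out of its row was not tested, so its values are not read as its expression.

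**Figure D3:**
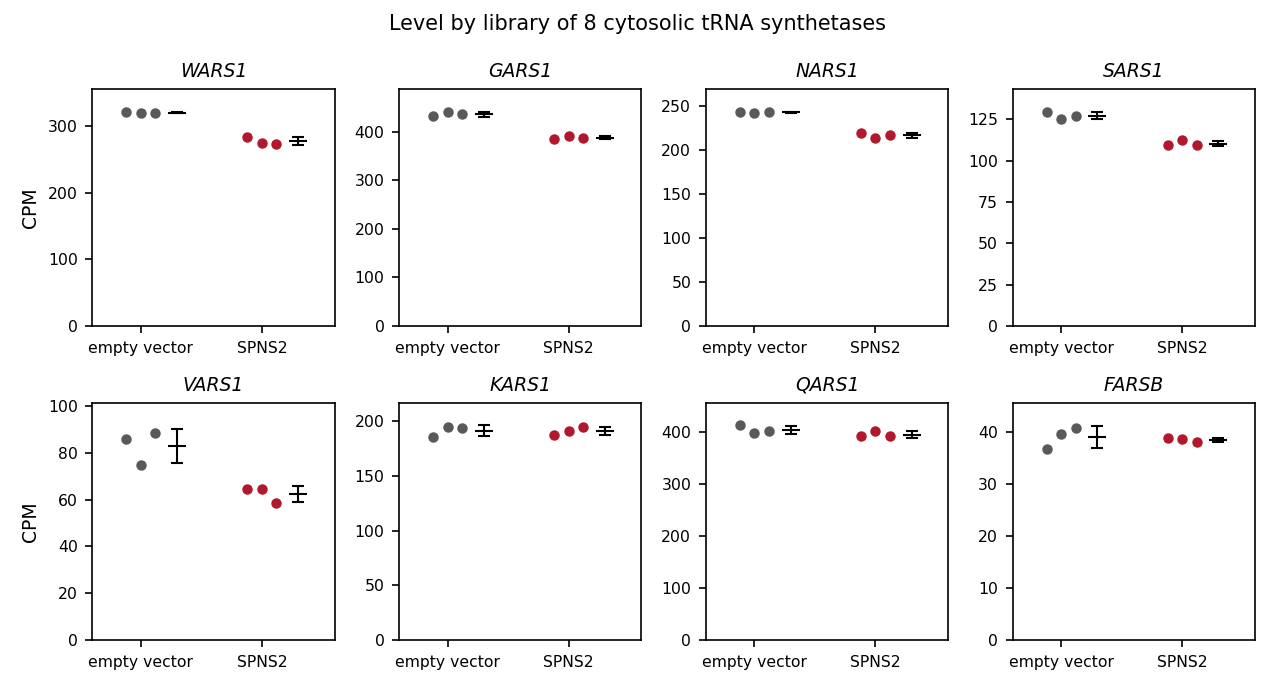
CPM (y axis, from 0) in each empty vector (grey) and SPNS2 (red) library for 8 cytosolic tRNA synthetases; bars are mean ± SD of 3 libraries. WARS1, GARS1, NARS1, SARS1 and VARS1 are lower in all SPNS2 libraries, while KARS1, QARS1 and FARSB overlap.

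Some synthetases form a multi-enzyme complex, and 7 of the members belong to it. Of these, EPRS1, IARS1, LARS1 and MARS1 were lower, and KARS1, QARS1 and RARS1 did not pass, with a median of -0.08 on the log2 scale. Of 12 member synthetases outside the complex, 9 were lower, with a median of -0.13. That is 57.1% lower inside and 75% outside the complex, against 12.6% of all features. The difference between these groups was not tested. Among the complex's scaffold proteins, EEF1E1 (AIMP3) fell by 0.21 and AIMP2 by 0.14 on the log2 scale, with adjusted p-values of 0.014 and 0.0489 by edgeR, while AIMP1 was at 71.2 ± 0.283 CPM in empty vector cells and 70.2 ± 0.0799 CPM in SPNS2 cells (SD, n = 3 each) and did not pass. EEF1E1 lost its call when library 3 of the empty vector group (adjusted p = 0.0687) or of the SPNS2 group (0.0678) was left out, and AIMP2 was called without empty vector library 1 but in no other fit that left out a library. GARS1 and KARS1 each serve both cytosol and mitochondria, and GARS1 was lower while KARS1 was not called.

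Levels of the member synthetases were also taken per kilobase of the longest principal transcript in GENCODE 29. The most abundant of these mRNAs with the empty vector was GARS1, at 165 ± 1.79 CPM per kilobase (SD, n = 3). QARS1 (143 ± 2.60) and FARSA (143 ± 3.47 CPM per kilobase) came next and did not differ beyond their spread. FARSB, which pairs with FARSA in equal number in the enzyme, was at 11.6 ± 0.631 CPM per kilobase, the lowest apart from CARS1. The near-empty row of CARS1 is not ranked. No source used here names the authors' annotation, so these levels are approximate. FARSA was called and FARSB was not, but their intervals overlap (-0.19 to -0.07 and -0.11 to 0.08), and the difference between them was not tested.

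The promoter core was set beside these calls. Of 10 lower synthetases with a window, 6 held the core: AARS1, GARS1, IARS1, MARS1, NARS1 and TARS1. Of 6 that were not called, CARS1 held it, but its near-empty row is not read as its expression. HARS1, KARS1, RARS1, QARS1 and FARSB did not hold it. Neither did the lower synthetases WARS1 (-0.21), SARS1 (-0.20), FARSA (-0.13) and EPRS1 (-0.10 on the log2 scale). WARS1 and SARS1 fell more than GARS1 (-0.17), the largest fall among the synthetases that held the core. LARS1, YARS1 and VARS1, which were lower, had no window. Whether lower synthetases and those not called differ in the core was not tested. Among the other members, the core was found in 2 of 9 that were lower, ASNS and CHAC1, and in 3 of 6 that were not called, ATF3, CEBPG and PPP1R15B. DDIT4, TRIB3, STC2 and VLDLR, with the largest falls, had no match in these windows, which says only that these letters are not there. Of all tested features with a window, 3.46% of those lower, 2.64% of those higher and 2.58% of those not called held the core.

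Mitochondria have their own synthetases, encoded by separate genes, and of 16 tested, 3 were lower and 13 did not pass. That is 18.8%, near the 12.6% of all features called lower, and 2 were lower with library totals only, by DESeq2 and with the replicate block, so the count is not a result about these genes. Their median log2 fold change was -0.04, and the level summed over all 17 listed was 3.65% lower. AARS2, for alanine, was at 44.8, 42.1 and 42.7 CPM in the empty vector libraries and 36.5, 36.5 and 39.0 CPM in the SPNS2 libraries. Its groups did not overlap (edgeR log2 fold change -0.21 with SE 0.0402 and adjusted p = 0.00304), and the change was -0.21 beside -0.10 in its cytosolic counterpart AARS1. TARS2, for threonine, fell by 0.18 beside 0.13 in TARS1 on the log2 scale. LARS2, for leucine, did not pass (interval -0.19 to 0.01). Mitochondrial synthetases were measured less precisely, with a median SE of 0.0479 against 0.0248 for the cytosolic genes, at 8.89 to 88.3 CPM with the empty vector. VARS2 held 0 to 15 counts per library and was not tested, with the same limit as for CARS1. Whether the cytosolic and mitochondrial sets differ was not tested.

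Genes of amino acid supply that are known ATF4 targets were also mostly lower. Of 17 tested, 14 were lower (82.4%, against 12.6% of all features) and 3 did not pass, with a median of -0.24 on the log2 scale. SHMT2, which makes glycine from serine in mitochondria, changed by -0.36, SLC7A5, the leucine transporter, by -0.27, PHGDH, the first step of serine synthesis, by -0.25 and SLC1A5, a glutamine transporter, by -0.22 on the log2 scale. PYCR1 was listed at 0 counts in all 6 libraries, again with that limit. Factors that modify or export tRNA showed 6 lower genes of 13 (46.2%, against 12.6% of all features), with a median of -0.14. Of these, PUS1, a pseudouridine synthase, fell by 0.32, WDR4, a partner of the tRNA methyltransferase METTL1, by 0.29, and NSUN2 and XPO5 each by 0.14 on the log2 scale.

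Upstream of ATF4, 2 of 12 tested eIF2 kinases and eIF2 and eIF2B subunits were higher and 2 lower, with a median log2 fold change of -0.05. These shares, 16.7% each, are near those of all features, 11.9% higher and 12.6% lower. EIF2AK2 (PKR), the kinase for double-stranded RNA and an interferon-induced gene, was at 45.9, 45.2 and 48.8 CPM in the empty vector libraries and 51.4, 51.2 and 52.4 CPM in the SPNS2 libraries. All SPNS2 libraries were higher (edgeR log2 fold change 0.15 with SE 0.0364 and adjusted p = 0.0125), but the call was lost when empty vector library 2 (adjusted p = 0.0533) or SPNS2 library 3 (0.0503) was left out. EIF2S3, a subunit of eIF2, rose by 0.10, while EIF2S2, another subunit, fell by 0.17 and EIF2B5, of the exchange factor eIF2B, fell by 0.16 on the log2 scale. The kinases for amino acid shortage (EIF2AK4, GCN2), unfolded protein (EIF2AK3, PERK) and haem shortage (EIF2AK1, HRI) did not pass. Phosphorylation of eIF2 is not measured by these data.

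The ATF6 and IRE1 arms of the unfolded protein response, which respond to stress in the endoplasmic reticulum without ATF4, were called about as often as all features. Of 17 tested genes, 2 were higher and 2 lower, 11.8% each against 11.9% and 12.6% of all features, with a median log2 fold change of 0.05. All 3 SPNS2 libraries lay above all 3 empty vector libraries for 7 genes and below for 2, against 19.8% and 20.3% of features. At an unadjusted p under 0.05 by edgeR, 5 genes were higher and 2 lower, against 18% and 18.2% of features. HERPUD1, of protein disposal from the endoplasmic reticulum and also an ATF4 target, was lower (-0.26), as was the chaperone cofactor SDF2L1 (-0.17). DNAJC3, which restrains eIF2 kinases, rose by 0.17 and the chaperone CALR by 0.07 on the log2 scale. The call of CALR was lost when empty vector library 3 (adjusted p = 0.0573) or SPNS2 library 1 (0.0580) or 2 (0.0654) was left out. HYOU1 was not analysed here.

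**Figure D4:**
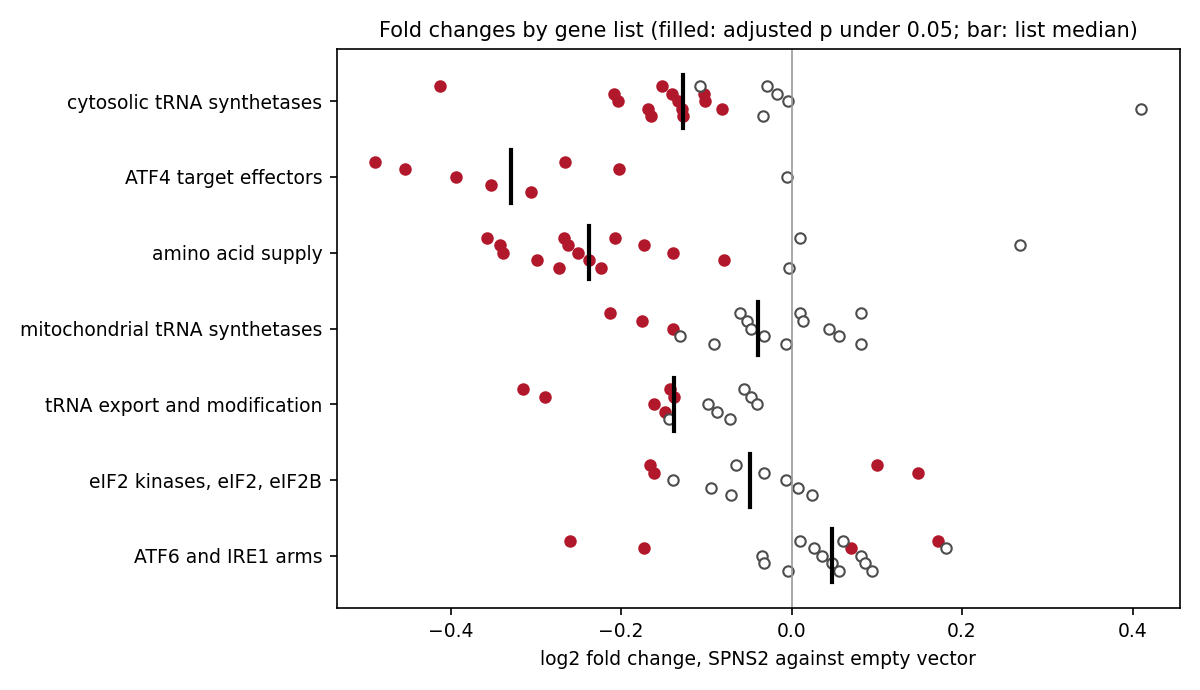
Log2 fold change, SPNS2 against empty vector (x axis), of every tested gene in 7 lists; filled points passed an adjusted p under 0.05 by edgeR and black bars are list medians. Medians lie at -0.33 for ATF4 effectors, -0.24 for amino acid supply and -0.13 for cytosolic synthetases, and at -0.04 for mitochondrial synthetases and 0.05 for the ATF6 and IRE1 arms.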

How the data were processed

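Libraries had been prepared with a stranded TruSeq mRNA kit, per the labels' protocols. The authors deposited estimated counts per gene, made with Salmon per the submitters' processing notes, as whole numbers; no source used here names the version, genome build or annotation. Symbols were matched through tables of gene names, RefSeq and GENCODE 29 (34226 of 34370 Ensembl IDs). Counts were filtered with filterByExpr (minimum count 10, minimum total 15), scaled by TMM and tested with edgeR 4.0.16 (quasi-likelihood, group as the only term, R 4.3.3), with Benjamini-Hochberg adjustment over all 13308 features tested. SE was derived from the F statistic of each test. CPM uses TMM-scaled totals. Alternatives were DESeq2 1.42.0, limma 3.58.1 voom, other scalings and filters, a replicate block and leaving out each library. The pipeline was also run on counts simulated from the same edgeR model, which cannot show whether that model suits these data. Members, lists and the promoter motif were chosen with earlier results of these data known. Named genes are all members and, in each other list, up to 4 with the smallest p, of which 2 are counted in their lists but not reported here; others named (METTL1, the remaining kinases, genes at or near 0 counts, genes that were not analysed here and the marker genes) were chosen after their values were seen.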

Additional observations from a re-analysis of the deposited data

How the results depend on the processing

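Across 13 alternatives, 444 of 465 member values kept their sign and their side of the threshold, and 21 of 23 lower members kept their call in all 13, LARS1 and EPRS1 being the exceptions. Leaving out a library gave 21 to 24 lower members, 11 to 13 lower cytosolic synthetases, 10 to 11 lower regulators and targets, 2 to 3 lower mitochondrial synthetases, 0 to 1 higher members and 2246 to 2738 called features. Signs changed only for genes that were not called. DDIT3 ranged from -0.013 to 0.029 when a library was left out, KARS1 from -0.025 to 0.0089, RARS1 from -0.063 to 0.022 and FARSB from -0.063 to 0.018. XPOT was at 0.0033 with library totals only and 9.2e-05 at a mean CPM of at least 5. KARS1 was at 0.0055 and 0.0023 in those fits. AIMP2 was also not called by DESeq2 (adjusted p = 0.207) or voom (0.0526), with library totals only (0.0604), without a filter (0.0586), with the filter on mean CPM (0.0620) or with the replicate block (0.0714). CALR was not called without a filter (0.104). The cause of these changes was not tested. Same-numbered libraries did not deviate together (correlations of 0.031, 0.038 and -0.019), and not every library correlated best with its own number. No pairing by number was thus detected, but this check cannot show that the libraries were not prepared in pairs. With the replicate block, 22 members, 12 cytosolic synthetases, 10 regulators and targets and 2 mitochondrial synthetases were lower and 2723 features were called. Library totals in place of TMM moved the median of all features from 0.0026 to 0.012 on the log2 scale. Few counts limit NUPR1 and ATF3 most. CARS1 had fewer still, and whether its row misses reads through the authors' annotation or counting was not tested.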
